A study of Gallus gallus with 106 samples.

Results

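ACACA and ACLY encode consecutive enzymes of fatty acid synthesis in the cytosol. They were followed in chicken satellite cells, the stem cells of skeletal muscle, over 48 h of myogenic differentiation at low or standard culture oxygen. The members were found by name: every row of the count table whose name, without its trailing number, is ACACA or ACLY, which gave 2 of 569 genes and 3 of 590 transcripts. The pair was put together with earlier results of these libraries in view, among them a higher ACACA count in hypoxia at 12 h. Its differences are therefore given as a description, with no p-value, and its counts of calls support nothing.

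ACLY, ATP citrate lyase, splits citrate exported from mitochondria and so supplies acetyl-CoA to the cytosol. ACACA, acetyl-CoA carboxylase alpha, carboxylates that acetyl-CoA to malonyl-CoA, the first committed step of fatty acid synthesis. Malonyl-CoA is the building block used by fatty acid synthase and also inhibits CPT1, the enzyme that admits long-chain fatty acids to mitochondria for oxidation. In birds the liver is the main site of fatty acid synthesis, and in muscle cells malonyl-CoA is best known as a brake on fat oxidation. The activity of ACACA is also set by phosphorylation, which RNA counts do not show.

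The cells were primary wild-type satellite cells from the Pectoralis major, the breast muscle, of broilers, which are chickens bred for meat. Proliferating cells were changed to a differentiation medium with horse serum and chicken embryo extract, then kept at 20% O2 (normoxia) or 1% O2 (hypoxia). There were 5 libraries at 0 h, taken just before the medium change and never in hypoxia, and each later harvest (12, 24, 36 and 48 h) had 6 libraries per oxygen level, which makes 53. Each library was measured in 2 technical replicates by targeted RNA-seq, in which primers amplify a chosen panel of transcripts from cDNA. The labels do not say whether libraries of a group came from separate birds, so p-values and intervals below measure only how these samples spread, which may be technical in origin.

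Depth ran from 171196 to 1448544 counts per library, with a median of 759253. Levels are given in CPM, the normalised read count, which is scaled by library size. For the marker genes and their sums the library totals alone were used. Later CPM values also use TMM factors, unless stated to be of a total. Of the muscle cell marker list 10 of 11 genes were in the panel and none was at 0 in every library of a group. Their summed level ran from 31587 to 44875 CPM, and PAX7 and MYOD1 were above 0 in all 53 libraries. Of 9 adipocyte markers 6 were in the panel, and their sum ran from 13731 to 21310.2 CPM with overlapping ranges between the oxygen levels at every time. At 0 h it was 13969 to 16070 CPM. All libraries were above that range in normoxia at 24 h (17014 to 19162), 36 h (18602 to 21310.2) and 48 h (17231 to 20014). In hypoxia this held at 48 h (16844 to 19748) and not before. The part of these markers in the changes from 0 h was not tested. CFD, an adipocyte protease, was at or near 0, and PLIN1 was also low, from 1.88 to 63.9 CPM. The sum came mainly from FABP4, LPL, ADIPOQ and PPARG, with medians of 6255, 4975, 3779 and 2618 CPM. Of 6 fibroblast markers 4 were in the panel, with sums from 12827 to 16790.2 CPM that overlapped between the oxygen levels at every time. Of 7 endothelial and blood markers 4 were in the panel; their sum was 549 to 1034 CPM at 0 h and 42.5 to 496 CPM later, and its part in the changes from 0 h was not tested. Their median sum was 204 CPM in normoxia and 229 in hypoxia at 12 h, 113 and 161 at 24 h, 89.6 and 119.6 at 36 h, and 71.7 and 139 at 48 h. The ranges overlapped at each time, and the part of these markers in the oxygen differences was not tested. The 4 liver markers were not among the panel's genes. A score over MC5R, SSTR2, HRH2, THRSP, FBP2 and IRS1 set 17 libraries apart from the rest, with no library between 7.03 and 7.67 on its log2 scale. In normoxia 4 of 6 libraries at 12 h were among them and 5 of 6 at 48 h. In hypoxia it was 1 of 6 at 12 h and 2 of 6 at 48 h, so the oxygen differences at these times are also given without them.

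ACACA was measured by 2 transcript entries on the minus strand of chromosome 19, both from 8593485 to 8689415 in the galGal6 build. ACACA_3 (ENSGALT00000054036) has 55 exons and 7120 exonic bases, and it carried 28141 counts over all libraries, with a value above 0 in 106 of 106 columns. ACACA_2 (ENSGALT00000065243), also with 55 exons and with 7141 exonic bases, carried 27 counts in all, in 16 of 106 columns, and never more than 4 in a column. The annotated entries share 54 exons: ACACA_3 alone has a 24-base exon at 8649749 to 8649772, and ACACA_2 alone has a 45-base exon at 8643243 to 8643287. The sources used here do not state how reads were assigned between the entries, so this split is not read as isoform usage. ACLY was measured by a single entry, ACLY_2 (ENSGALT00000070919), on the minus strand of chromosome 27 from 7521200 to 7545007, with 29 exons and 4191 exonic bases, and it carried 49395 counts in 106 of 106 columns. Both genes are protein-coding in RefSeq, under gene identifiers 396504 and 395373.

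ACACA had 68 to 1999 counts per library and ACLY 116 to 3025. The shallowest library, normoxia at 36 h replicate 4, gave ACACA 397 CPM of its total (95% Clopper-Pearson interval 308 to 504) and ACLY 678 CPM (560 to 813). Counting error was 0.122 to 0.270 of the SD between libraries for ACACA in 7 groups, 0.550 at 0 h and 0.481 in normoxia at 48 h, and 0.111 to 0.427 for ACLY. These intervals and errors cover counting error only, since reads of amplified cDNA without molecular identifiers are not independent molecules.

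At 0 h the ACACA level in the 5 libraries was 357, 429, 378, 322 and 415 CPM, a mean of 380.3 ± 43.1 (SD, n = 5), the lowest of the 9 groups. In technical replicate 1 alone it was 473 ± 82.2 CPM of the column total, from 379 to 582. In technical replicate 2 alone it was 275 ± 59.9, from 185 to 347, with no overlap between the 2. ACLY in the same libraries was at 1616, 1795, 1432, 1273 and 1925 CPM, a mean of 1608 ± 264, the highest of its 9 group means. The pair therefore started from opposite ends of their own ranges. Levels of ACACA and ACLY are not compared with each other, because counts from different amplicons depend on primer yield. In bulk samples such as these, fewer cells of a type and less RNA per cell cannot be told apart.

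**Figure D1:**
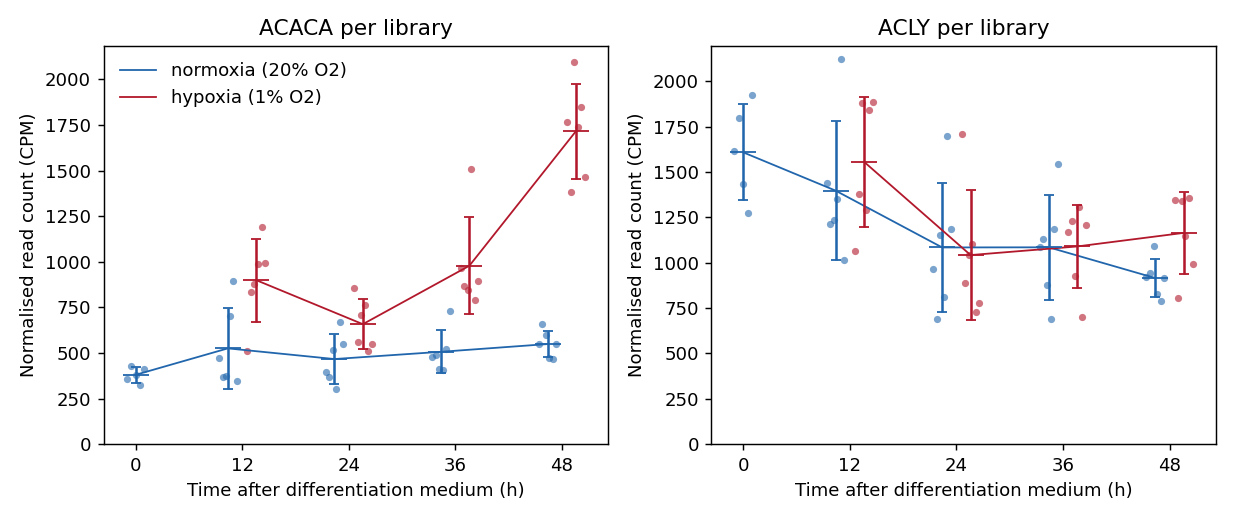
Normalised read count (CPM) of ACACA (left) and ACLY (right) against hours after the change to differentiation medium. Each point is a library, bars are mean ± SD, and lines join group means of normoxia (blue) and hypoxia (red). ACACA in hypoxia lay above every normoxia library at 36 and 48 h, while ACLY overlapped between oxygen levels at every time.

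The largest oxygen difference of ACACA was at 48 h. In normoxia its lowest, median and highest levels were 468, 548 and 661 CPM (mean 549 ± 73.5, n = 6), and in hypoxia they were 1384, 1752 and 2093 CPM (mean 1716 ± 259.9, n = 6). The groups did not overlap, and the lowest hypoxic library held more than the highest normoxic one. In the edgeR fit over all genes the change was 1.65 on the log2 scale (SE 0.21), a 3.13-fold difference with a 95% interval from 2.34 to 4.20. It was the rank 11 change from the top among 453 tested genes.

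At 36 h ACACA also stood apart between the oxygen levels. Normoxia had 405, 485 and 730.1 CPM as lowest, median and highest (mean 507 ± 118), and hypoxia had 789, 879.5 and 1510.2 CPM (mean 978 ± 267). The change was 0.94 (SE 0.21), or 1.92-fold with a 95% interval from 1.44 to 2.57. One hypoxic library, replicate 4, was well above the other 5, and all 6 lay above the normoxic range.

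At 12 h the groups overlapped. Normoxia ran from 348 through a median of 421 to 892 CPM (mean 525 ± 223), and hypoxia from 508 through 934 to 1192 CPM (mean 899 ± 228). In hypoxia 3 of 6 libraries lay above every normoxic one, and the change was 0.78 (SE 0.21), or 1.71-fold with a 95% interval from 1.29 to 2.28. The 12 h value moved with the libraries that stand apart: in normoxia the 4 libraries above the gap had a mean of 389 CPM and the 2 below it 797 CPM, and in hypoxia the 1 library above it was at 508 CPM and the 5 below it had a mean of 977 CPM. Without those libraries the 12 h change was 0.28 and not called. Leaving out replicate 3 (0.70) or 6 (0.65), scaling by reference genes (0.66) or using technical replicate 2 alone (0.26) ended this call as well.

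At 24 h the oxygen difference of ACACA was smaller than at the other times, except without the libraries that stand apart (0.45, against 0.28 at 12 h) and with technical replicate 2 alone (0.56, against 0.26). Normoxia had 303, 456 and 671 CPM as lowest, median and highest (mean 467 ± 136), and hypoxia had 509, 635 and 854 CPM (mean 658 ± 138). Again 3 of 6 hypoxic libraries exceeded the normoxic range. The change of 0.50 (SE 0.21), 1.41-fold with a 95% interval from 1.06 to 1.88, was not called after adjustment over all genes.

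ACACA was thus called in 3 of the 4 comparisons of hypoxia with normoxia, each time higher, at a Benjamini-Hochberg adjusted p under 0.05 over all tested genes, and in 4 of 4 before adjustment. The share of all tested genes called in either direction was 17.9% at 12 h, 18.5% at 24 h, 16.3% at 36 h and 22.3% at 48 h, and the share called higher was 7.51% at 12 h, 6.18% at 36 h and 13% at 48 h. Groups did not overlap, with hypoxia higher, in 3.09% of genes at 36 h and 9.27% at 48 h. Since ACACA was chosen with such results known, nothing is read from its calls. The calls at 36 and 48 h were kept under 17 of 17 alternatives, where the change ran from 0.73 to 1.10 and from 1.42 to 1.80. Without the libraries that stand apart it was 0.93 and 1.64; that left 1 library in normoxia at 48 h, which is assumed to vary like the other groups.

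ACLY was not called in any of the 4 comparisons with edgeR, nor at an unadjusted p under 0.05 (0 of 4), nor with DESeq2 (0 of 4). At 12 h its lowest, median and highest levels were 1016, 1295 and 2123 CPM in normoxia (mean 1397 ± 383) and 1065, 1609 and 1883 CPM in hypoxia (mean 1556 ± 357). At 24 h they were 693, 1059 and 1697 CPM in normoxia (mean 1084 ± 356) and 729, 967 and 1711 CPM in hypoxia (mean 1042 ± 358). Each hypoxic range lay largely inside its normoxic one. At 36 h normoxia had 691, 1109 and 1542 CPM (mean 1085 ± 289.8) and hypoxia 699, 1188 and 1306 CPM (mean 1089.8 ± 229.9).

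The log2 change of ACLY was 0.16 at 12 h, -0.06 at 24 h and -0.00 at 36 h, each with an SE of 0.20. The 95% intervals of these fold changes were 0.845 to 1.47, 0.728 to 1.27 and 0.757 to 1.32, so differences inside these bounds could not be resolved with these libraries. At 48 h ACLY had 789.7, 921 and 1092 CPM in normoxia (mean 916 ± 105) and 806, 1244 and 1356 CPM in hypoxia (mean 1165 ± 227). There 4 of 6 hypoxic libraries lay above the normoxic range, yet the groups overlapped and the change of 0.35 (SE 0.20; fold 0.964 to 1.69, 95% interval) was not called. Without the libraries that stand apart the change of ACLY was -0.08 at 12 h, the opposite sign, and 0.30 at 48 h, neither called, and its normoxic change from 0 to 12 h was 0.13.

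**Figure D2:**
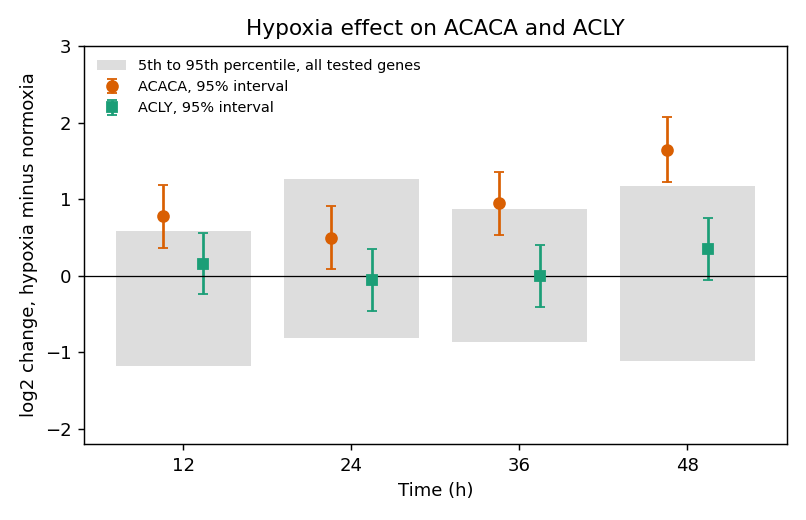
Log2 change between hypoxia and normoxia (y axis) at each time in hours (x axis) for ACACA (circles) and ACLY (squares), with 95% intervals from the edgeR fit. Grey bars span the 5th to the 95th percentile of the changes of all 453 tested genes. ACACA goes from 0.78 at 12 h to 1.65 at 48 h, and the interval of ACLY includes 0 at every time.

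Whether the oxygen effect on ACACA differed between times was read from the interaction of oxygen and time. The effect at 48 h was larger than at 12 h by 0.87 on the log2 scale (SE 0.29), which was called; 9.27% of all tested genes were called in that difference, 7.28% of all tested genes with the higher value at 48 h, and 10.6% in the joint comparison of all times. The effects at 24 and 36 h differed from that at 12 h by -0.28 and 0.17 (SE 0.29 each), neither called, with 4.64% and 5.52% of all genes called. The difference between 48 and 12 h was not stable: it was called in 5 of 16 alternatives, among them without replicate 2 or 6 but not without replicate 1, 3, 4 or 5, and ran from 0.26 with technical replicate 1 alone to 1.55 with technical replicate 2 alone. For ACLY the corresponding differences were -0.21, -0.16 and 0.20 (SE 0.28 each), and none was called.

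In normoxia the mean of ACACA was above its 0 h mean at every later time. Before 48 h the libraries overlapped with those at 0 h. The 95% fold interval of ACACA included 1 at 24 h (0.909 to 1.66) and 36 h (0.987 to 1.81). Its level relative to 0 h was 0.47 higher on the log2 scale at 12 h, 0.30 at 24 h, 0.42 at 36 h and 0.53 at 48 h (SE 0.22 each), of which the 48 h value alone was called, with all 6 libraries above the 0 h range; 15.5% of all tested genes were called higher in that comparison and 11.7% were higher with no overlap. That call was made in 9 of 17 alternatives, over which the value ran from 0.47 to 0.71. Leaving out replicate 1, 2, 3, 4 or 6, scaling by reference genes or using technical replicate 1 alone ended it. Without the libraries that stand apart, which left 1 library in normoxia at 48 h, the value was 0.55. At 12 h the normoxic value was 1.07 without the libraries that stand apart and 1.00 with technical replicate 2 alone, both called, and 0.090 with technical replicate 1 alone. At 36 h technical replicate 2 alone gave 0.80, also called. In hypoxia the same differences were 1.24 (SE 0.22), 0.80 (SE 0.22), 1.36 (SE 0.22) and 2.18 (SE 0.23), all called and with no overlap with 0 h; with technical replicate 1 alone the 24 h value was 0.56 and not called. Among all tested genes the share called higher in these was 12.1%, 15.5%, 20.3% and 19%, and the share higher with no overlap 8.83%, 8.17%, 9.93% and 13.9%. The last is a 4.52-fold higher level than at 0 h, with a 95% interval from 3.29 to 6.21. The 24 h mean was below the 12 h mean in both oxygen levels. In normoxia the medians went the other way, 421 CPM at 12 h and 456 CPM at 24 h. With technical replicate 1 alone the normoxic difference from 0 h was also no smaller at 24 h (0.13) than at 12 h. In hypoxia the medians were 934 and 635 CPM. Levels at 24 h were not tested against those at 12 h.

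ACLY went the other way from 0 h. In normoxia its log2 difference from 0 h was -0.20 at 12 h, -0.56 at 24 h, -0.56 at 36 h and -0.81 at 48 h (SE 0.21 each), with the last 3 called; 19.2%, 23.2% and 25.2% of all tested genes were called lower there. At 48 h all 6 libraries were below the 0 h range, a 0.570-fold level with a 95% interval from 0.426 to 0.762; 19.9% of tested genes were lower there with no overlap. In hypoxia the differences were -0.05, -0.62, -0.56 and -0.46 (SE 0.21 each), with those at 24 and 36 h called, where 18.1% and 26.9% of tested genes were called lower. The calls in normoxia were made in 11, 10 and 16 of 17 alternatives at 24, 36 and 48 h and those in hypoxia in 12 of 17 at each time; leaving out replicate 1, 2 or 4 ended both normoxic calls before 48 h, and leaving out replicate 2 or 5 ended both hypoxic ones. Leaving out replicate 3 ended the call at 36 h in each oxygen level, and leaving out replicate 6 the hypoxic call at 24 h. Without the libraries that stand apart the normoxic values were -0.56 at 24 h and -0.54 at 36 h, neither called. At 48 h that left 1 normoxic library, and the value was -0.76. The 8 comparisons share the 5 libraries at 0 h. In either direction the shares of tested genes called against 0 h were 18.1%, 32.2%, 39.7% and 40.6% in normoxia and 27.2%, 33.6%, 47.2% and 44.2% in hypoxia at 12, 24, 36 and 48 h.

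Ordered by group mean, ACACA ran from normoxia at 0 h through normoxia at 24, 36, 12 and 48 h to hypoxia at 24, 12, 36 and 48 h, and every hypoxic mean exceeded every normoxic one. Among the libraries below the gap this did not hold, since there the mean was 797 CPM in normoxia at 12 h and 619 CPM in hypoxia at 24 h. ACLY ran from normoxia at 48 h through hypoxia at 24 h, normoxia at 24 and 36 h, hypoxia at 36 and 48 h, normoxia and hypoxia at 12 h, up to 0 h. Neighbours in either order overlapped in their library values at every step. The distance from the lowest to the highest of the 9 group means was 2.16 for ACACA and 0.80 for ACLY on the log2 scale, against a median of 0.73 over all tested genes. It was wider than that of 85.7% of tested genes for ACACA and of 52.5% for ACLY.

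The ratio of ACACA to ACLY counts within a library needs no scaling between libraries, and its changes can be read although its level cannot. From normoxia to hypoxia the log2 ratio changed by 0.67 at 12 h, 0.58 at 24 h, 0.92 at 36 h and 1.31 at 48 h, which is 1.59-, 1.49-, 1.90- and 2.48-fold. At 12 h 4 of 6 hypoxic libraries and at 24 h 5 of 6 lay above every normoxic one, and at 36 and 48 h the groups did not overlap. How often ratios of other gene pairs separate in this way was not computed, so nothing is read from the separation. The SD within a group was between 0.12 and 0.31 on this scale.

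The ratio also shifted with time at constant oxygen. Against 0 h it was higher in normoxia by 0.60, 0.87, 0.99 and 1.33 at 12, 24, 36 and 48 h, and in hypoxia by 1.27, 1.44, 1.91 and 2.64. The last is a 6.24-fold shift. All 8 later groups lay above the 0 h libraries with no overlap, again with no share of other gene pairs to set beside it. Without the libraries that stand apart the change between oxygen levels at 12 h was 0.35, and with technical replicate 2 alone it was 0.42.

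**Figure D3:**
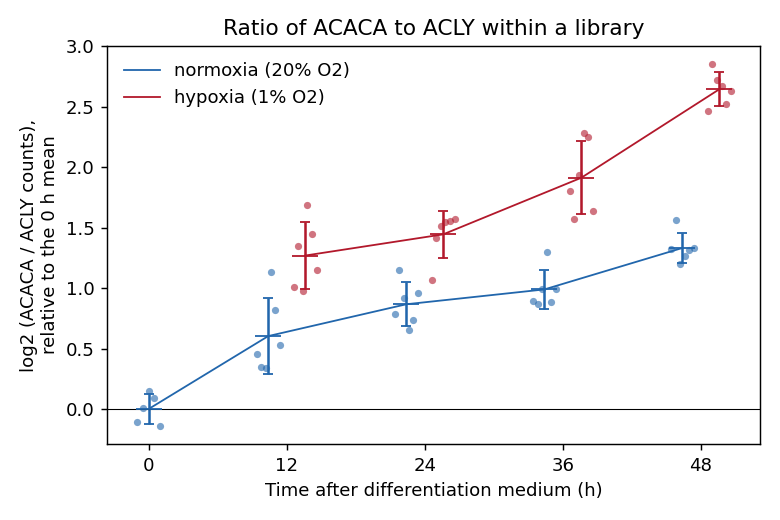
Log2 ratio of ACACA to ACLY counts within each library, set to 0 at the mean of the 0 h libraries, against hours in differentiation medium. Points are libraries, bars are mean ± SD, blue is normoxia and red hypoxia. The normoxic mean reaches 1.33 and the hypoxic mean 2.64 at 48 h.

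Within groups ACACA and ACLY tended to be high or low in the same libraries. How often other gene pairs do so was not computed, so this is not read as particular to the pair. The library lowest in ACACA was also the lowest in ACLY in 8 of 9 groups, and the highest library was shared in 5 of 9. The pooled SD within groups was 0.35 on the log2 scale for each gene and 0.21 for their ratio. Across the 9 group means, by contrast, Pearson's r between the pair was -0.10. This is a description over 9 points that share the 0 h libraries and the scaling.

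Both genes also differed between technical replicates of the same library more than most genes did. Over 53 pairs the median absolute log2 ratio was 0.31 for ACACA and 0.32 for ACLY, against a median of 0.21 over the tested genes. Technical replicate 1 was the higher one in 37 of 53 pairs for ACACA and in 36 of 53 for ACLY. For ACACA at 12 h the mean level in technical replicate 1, in CPM of its column total, was 1127 ± 319 in hypoxia and 508 ± 202 in normoxia, whereas technical replicate 2 gave 657 ± 227 and 567 ± 253. The 12 h change was 1.16 from technical replicate 1 alone and 0.26 from technical replicate 2 alone, and the part of the technical replicates in it was not tested.

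**Figure D4:**
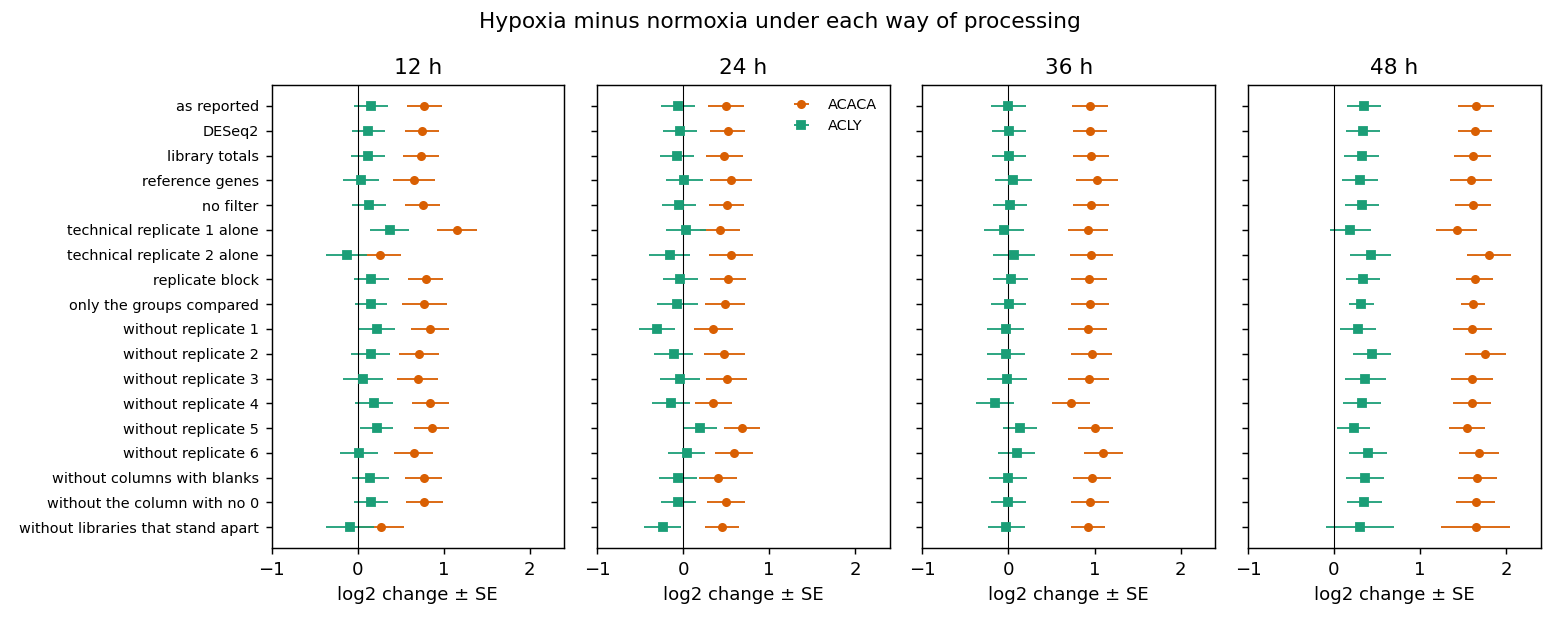
Log2 change between hypoxia and normoxia (x axis, ± SE) of ACACA (circles) and ACLY (squares) at 12, 24, 36 and 48 h, as reported and under each alternative way of processing (y axis). For ACACA the 12 h values spread from 0.26 to 1.16 and the 48 h values from 1.42 to 1.80, and ACLY was called under none.

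The genes most like ACACA over the 9 group means of log2 CPM were LITAF (r = 0.96), which encodes a protein of late endosomes and lysosomes, the mitochondrial carrier family member SLC25A43 (0.91), the FGF receptor-like FGFRL1 (0.90), the secreted protein gene COCH (0.89) and the chemokine CCL20 (0.88). The least like it were PPAT, of purine synthesis (-0.93), and the autophagy gene MAP1LC3A (-0.93). The genes most like ACLY were CPT1A (0.95), the mitochondrial ornithine carrier SLC25A15 (0.94), the kinase PIM1 (0.90), the growth factor BMP7 (0.89) and the metalloproteinase MMP9 (0.89), and the least like it were IGFBP7 (-0.90) and the deacetylase SIRT1 (-0.95). These are the highest and lowest correlations among all tested genes and carry no p-value. They do not show the size of a change. On the log2 scale the 9 group means of MAP1LC3A spanned 0.18, of PIM1 0.30 and of PPAT 0.36. The span was 3.74 for COCH and 3.80 for MMP9, with a median of 0.73 over all tested genes. CCL20 was at low levels, with group means from 2.13 to 5.02 log2 CPM.

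The other genes of lipid metabolism did not follow ACACA as a group. Of 64 tested genes in 7 lists, 2 were called higher and 6 lower in hypoxia at 12 h, 1 and 11 at 24 h, 0 and 10 at 36 h, and 4 and 7 at 48 h (edgeR, adjusted over all tested genes). In either direction that is 12.5%, 18.75%, 15.625% and 17.1875% of them, against 17.9%, 18.5%, 16.3% and 22.3% of all genes. Of all 453 tested genes, 34 were called higher and 47 lower at 12 h, and 45 and 39 at 24 h. At 36 h it was 28 and 46, and at 48 h 59 and 42. The lipid genes were called lower more often than higher at each time. Their median change was 0.10, -0.04, -0.02 and 0.02, against 0.04, 0.01, 0.00 and 0.01 over all tested genes. Without the libraries that stand apart, which left 2 normoxic libraries at 12 h, 5 were called at 12 h. The number called over all tested genes fell there as well and is given in the last section.

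Over all 453 tested genes 34, 45, 28 and 59 were called higher in hypoxia at 12, 24, 36 and 48 h. The list of malonyl-CoA use and fatty acid synthesis includes THRSP. That gene is also listed among the regulators of lipogenesis and is part of the score that set libraries apart. Of the 12 tested genes in the list 0 rose at 12, 24 or 36 h, while at 48 h 1 did. It was SCD, the desaturase that makes monounsaturated fatty acids, from 1957 ± 153 to 2802 ± 446 CPM (log2 0.52, SE 0.11, edgeR adjusted p = 0.00013). The fatty acid elongases ELOVL4 (-3.22 at 24 h), ELOVL3 (-3.07 at 24 h) and ELOVL1 (-1.76 at 12 h) fell, ELOVL4 and ELOVL3 from low levels: ELOVL4 stood at 15.8 ± 10.7 and 1.07 ± 1.33 CPM at 24 h. At 48 h neither ELOVL4 (0.26) nor ELOVL3 (-1.20) was called, and ELOVL1 was not called at 24 or 36 h (-0.42 and -0.66). The elongases ELOVL5, ELOVL6 and ELOVL7 were called at no time and are named after their values were seen. FASN, fatty acid synthase, which consumes the malonyl-CoA made by ACACA, was not called at any time, with changes of 0.16, -0.09, -0.09 and 0.10; it is named here for its place in the pathway, after its values were seen.

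At a given time 28 to 59 of all 453 tested genes were called higher and 39 to 47 lower. Among 8 tested genes that supply acetyl-CoA, citrate or NADPH, 0 rose and 1 fell at each time, always MDH2, the mitochondrial malate dehydrogenase. Its change was -0.59, -0.78, -0.74 and -0.75 at 12, 24, 36 and 48 h (edgeR adjusted p = 0.00504, 0.000108, 0.000344 and 0.000147). Of 10 transcriptional regulators of lipogenesis PPARGC1A, a coactivator of mitochondrial genes, fell at 12, 24 and 36 h (-0.83, -1.07 and -0.42), and INSIG1, which retains SREBP precursors in the endoplasmic reticulum, rose by 0.19 at 24 h (edgeR adjusted p = 0.0166). SREBF1, which encodes the factor best known for switching on ACACA and ACLY in mammalian liver, stood at 0.17, 0.04, -0.08 and 0.26, not called, and was likewise named after its values were seen.

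Of 7 tested genes that regulate the enzymes, among them those of the AMPK pathway, SESN1, a stress-induced activator of AMPK, was called at 3 times in both directions: 0.29 at 12 h, -0.27 at 24 h and 0.55 at 48 h. In the fatty acid oxidation list of 7, CPT1A, the target of malonyl-CoA, rose from 4765 ± 151 to 5837 ± 216 CPM at 48 h (log2 0.29, edgeR adjusted p = 0.000196). More normoxic than hypoxic libraries stand apart at 12 h (4 against 1) and at 48 h (5 against 2). The changes of single lipid genes such as SCD and CPT1A are not given without these libraries. The part of these libraries in those changes was not tested. The lipid-sensing receptor PPARA fell at 24, 36 and 48 h (-0.37, -0.50 and -0.47), UCP3, a mitochondrial carrier, at 24 and 48 h (-0.92 and -1.17), and PPARD at 12 h (-0.82).

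In the list of triglyceride storage and lipolysis 14 genes were tested. PNPLA2, the first lipase of triglyceride breakdown, rose at 48 h (0.35) and the lipid droplet gene CIDEA at 12 h (0.31). MGLL, which cleaves monoglycerides, fell at 24 and 36 h (-0.69 and -0.64), and the fatty acid-binding protein FABP1 fell at 24, 36 and 48 h (-1.71, -1.09 and -1.41). Of 7 tested genes of sterol synthesis and transport 0 rose, and 0, 2, 3 and 2 fell at 12, 24, 36 and 48 h. Over all 453 tested genes 47, 39, 46 and 42 were called lower at these times. APOA1, a lipoprotein component, fell at 24, 36 and 48 h (-0.32, -0.33 and -0.34), and the cholesterol exporter ABCA1 fell at 36 h (-0.58).

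**Figure D5:**
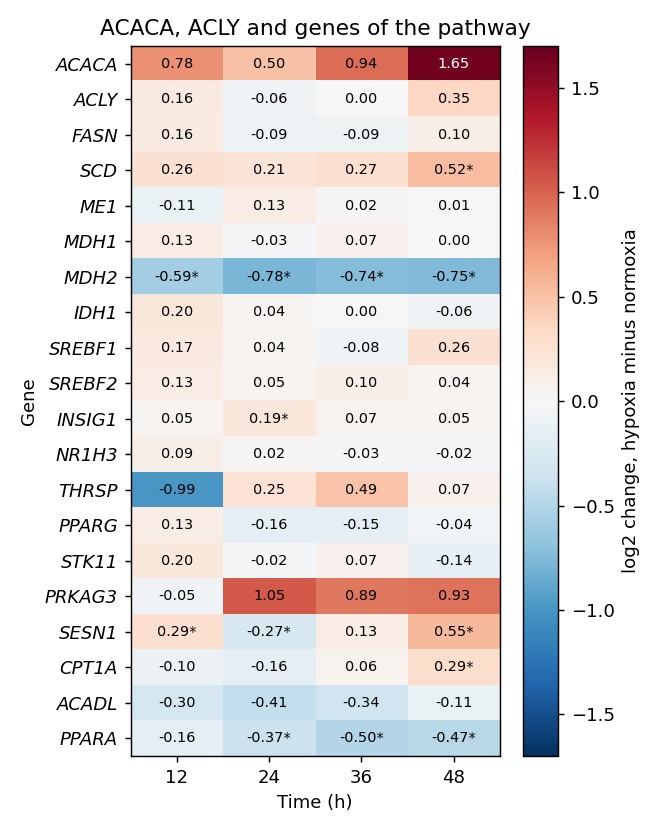
Log2 change between hypoxia and normoxia (colour and printed value) of ACACA, ACLY and 18 genes of the pathway (rows) at each time in hours (columns). Stars mark an edgeR adjusted p under 0.05 for genes other than ACACA and ACLY. ACACA reaches 1.65 at 48 h, ACLY 0.35 and FASN 0.10. The 18 genes were set by hand, not by the naming rule. Listed genes with larger changes than ACACA are left out, among them ELOVL4 (-3.22 at 24 h), ELOVL3 (-3.07 at 24 h) and ELOVL1 (-1.76 at 12 h).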

How the data were processed

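Per the labels' protocols, RNA was reverse transcribed and amplified with primers whose products cross exon boundaries. The authors deposited a table of raw read counts for 590 transcripts in 106 columns; coordinates are of galGal6, per the submitters' processing notes. The sources used here name neither aligner nor read counter. Blank cells (1160, in 21 columns) were read as 0, and no value of ACACA_3 or ACLY_2 was blank. Transcripts were summed per gene and technical replicates per library. Counts were scaled by TMM factors and fitted in R 4.3.3 with the quasi-likelihood test of edgeR 4.0.16, all 9 groups together. The filterByExpr filter kept 453 of 569 genes and dropped 116, and a gene is called where its p, adjusted by Benjamini-Hochberg over those kept, is under 0.05. Residual degrees of freedom were 44 and the common biological coefficient of variation 26.0%. The procedure was tested on simulated counts. No outcome of that is given here, so nothing is read from it.

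The members, lists and tests were chosen with earlier results of these data known. Named genes are ACACA and ACLY, the 5 most and 2 least alike genes, and up to 4 called genes per list by size of change. A gene that this rule would name is counted in its list but not reported here. Alternatives were DESeq2 1.42.0, library totals or 7 reference genes as the scale, no filter, single technical replicates, a replicate block, the compared groups alone, each replicate left out, columns with blanks or with no 0 left out, and the libraries that stand apart left out, the last added after seeing the data. RefSeq names came from a table of assembly GRCg7b, used for names alone. No sequences are shown.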

Additional observations from a re-analysis of the deposited data

Results flagged for a closer look

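Of 27 groups examined for a library far from its neighbours (9 groups for each of ACACA, ACLY and their ratio), 5 held one by Dixon's criterion; chance alone gives about 1 in 20. ACACA was at 730.1 CPM in normoxia at 36 h replicate 6 and at 1510.2 CPM in hypoxia at 36 h replicate 4, both above the other 5 libraries of their group. The log2 ratio of ACACA to ACLY was -1.002 in hypoxia at 24 h replicate 1, below the rest, -0.77 in normoxia at 36 h replicate 4, above the rest and the library with the fewest counts, and -0.51 in normoxia at 48 h replicate 2, above the rest. The effect of hypoxia on ACACA differed between 48 and 12 h by 0.87 on the log2 scale in the interaction of the edgeR fit; it was called in 5 of 16 alternatives.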

How the results depend on the processing

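Of 504 alternative values for 30 changes of ACACA and ACLY, 484 stayed within the spread between replicates, 20 moved beyond it and 0 reversed a called direction; the cause was not tested. With technical replicate 1 alone the hypoxia effect on ACACA was 1.16 at 12 h, its normoxic change from 0 to 12 h was 0.090, and its effect differed from that at 12 h by -0.73 at 24 h, -0.23 at 36 h and 0.26 at 48 h; for ACLY the 48 h difference was -0.18. With technical replicate 2 alone the corresponding values were 0.26, 1.00, 0.30, 0.71 and 1.55, and 0.55 for ACLY; the change of ACACA from 0 h was then 0.80 in normoxia at 36 h and 1.17 and 1.77 in hypoxia at 24 and 36 h, and the ratio change at 12 h was 0.42. Without the libraries that stand apart they were 0.28, 1.07, 0.18, 0.65 and 1.37, with a ratio change of 0.35.

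The count of all genes called between oxygen levels was 81, 84, 74 and 101 at 12, 24, 36 and 48 h. It was 42 at 12 h with reference genes, 47 and 55 at 12 and 24 h with technical replicate 1 alone, 49 and 39 at 24 and 36 h with technical replicate 2 alone, 131, 42 and 33 at 12, 24 and 36 h with only the groups compared in the fit, and 24 and 22 at 12 and 48 h without the libraries that stand apart. Leaving out each replicate gave 44 to 86 at 12 h. Of the calls at 12 h 42.0% were higher, against 29.2% with DESeq2, 33.3% with library totals and 23.8% with reference genes; reference genes moved the median of all genes at 12 h by -0.11, and relative to that median ACACA was at 0.73 as before. The count of other lipid genes (8, 12, 10 and 11) was 5 and 6 at 12 and 24 h with reference genes, 5 at 36 h with technical replicate 2 alone, 13, 6 and 6 at 12, 24 and 36 h with only the groups compared, 5 at 12 h without columns with blanks, and 5 and 1 at 12 and 48 h without the libraries that stand apart. Leaving out each replicate gave 5 to 9 at 12 h and 6 to 13 at 36 h.

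Replicate numbers were not taken as pairs, since the deviations of same-numbered libraries correlated by -0.32 to 0.78, over 0.1 in 12 of 24 pairs, and highest with their own number in 7 of 24. The numbers still carried shared structure: replicate 1 was among the libraries that stand apart in 8 of 9 groups, and the shallowest library had the same number in both oxygen levels at 4 of 4 times. With the number as a replicate block the hypoxia effect on ACACA was 0.79, 0.52, 0.94 and 1.63, with the calls at 12, 36 and 48 h made as before, and the difference between 48 and 12 h was 0.84 and not called; 110 genes were called at 12 h. At 24 h ACACA was called with DESeq2 and without replicate 5 (0.69). Relative to the spread between libraries, counting error of ACACA was largest at 0 h and in normoxia at 48 h, about 0.550 and 0.481 of it. The spread itself was smallest in these groups, with an SD of 43.1 and 73.5 CPM.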
